A study of Mus musculus with 6 samples.

Results

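Ccl22 and Ccl17 encode the 2 chemokines that bind the receptor CCR4. They were taken by their gene symbols, each by the probe set that the array annotation gives for it, and are 2 of the 12393 genes represented on the arrays. Each gene had 1 probe set, so no other probe set of either gene could serve as a check. The pair was selected on its measured log2 difference between the groups, so its own values are given as a description with no test.

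The study sorted CD11c-positive conventional dendritic cells (DCs) by flow cytometry from the spleen and the lymph nodes of BALB/c mice, a common inbred strain, and hybridised their RNA to Affymetrix arrays. There were 3 arrays labelled spleen and 3 labelled lymph node, numbered 1 to 3 in each group. The labels name no treatment, allele, age or sex. They do not say whether the arrays of a group came from separate animals or pools, so SDs and p-values cover the array-to-array spread alone, and that spread could be technical.

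DCs take up antigen, mature, and present it to T cells. CCL22 and CCL17 are small secreted proteins that draw T cells carrying CCR4, among them regulatory, type 2 helper and skin-homing T cells, towards the DC. Ccl22 is a textbook gene of mature DCs, including those that migrate to lymph nodes, and Ccl17 has been described in mouse DCs of lymph nodes and barrier tissues with little in the spleen at rest. Both genes are known to respond to interleukin-4 through STAT6 and to GM-CSF. They lie close together on mouse chromosome 8, with the gene of another chemokine, Cx3cl1 (fractalkine), between them.

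The labels were checked against marker genes first. Itgax, which encodes CD11c, was high on all 6 arrays, at a log2 intensity of 9.74, 10.17 and 9.88 on the arrays labelled spleen, against 10.88, 10.85 and 10.97 on those labelled lymph node. The 15 measured conventional DC markers summed to 12203 to 17350 intensity units on the arrays labelled spleen, against 19806 to 20407 on those labelled lymph node. Ccr7, the receptor that guides mature DCs to lymph nodes, and Fscn1, which encodes fascin, an actin bundler of mature DCs, were higher on the arrays labelled spleen. Ccr7 and Fscn1 mark DCs that travel to lymph nodes, and their direction was opposite to that of the labels. The cause of this direction was not tested. The Ccr7 call (adjusted p = 0.0496 in limma) ended in 9 of the alternative settings. Of the same marker list, Cd83 (-0.46) and Relb (-0.40) had log2 differences of the opposite sign with overlapping groups. The 7 measured migratory DC markers summed to 3759 to 6046 units on the arrays labelled spleen, against 2185 to 3157 on those labelled lymph node. Markers of spleen red pulp macrophages summed to 217, 206 and 208 units on the arrays labelled spleen, against 151, 128 and 706 on those labelled lymph node. Over all 6 arrays the median log2 difference of these 6 markers was -0.51. The overlap of the sums came from lymph node array 3. Without it, a choice made after seeing the data, the sums ran the way the labels say. The 6 measured markers of lymph node stroma and lymphatics summed to 95.1 to 120 units on the arrays labelled spleen, against 159 to 173 on those labelled lymph node, also the way the labels say. Without Pecam1, a choice made after seeing the data, the sums of the other 5 ran the other way. They were 39.2 to 44.9 units on the arrays labelled spleen, against 28.4 to 34.3 on those labelled lymph node. The 4 measured erythroid markers summed to 54.2 to 57.2 units on the arrays labelled spleen, against 59.2 to 78.3 on those labelled lymph node. The marker lists thus ran both ways, and the groups are called by their labels throughout.

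The promoter windows are shown because both ligand genes had higher values in the same group while the gene between them had overlapping ones. Each window runs from 250 bases before to 50 after the gene's start in RefSeq (build GRCm38.p6, plus strand, 5′ to 3′). Ccl22 lies at chr8:94745434-94745733, Cx3cl1 at chr8:94771930-94772229 and Ccl17 at chr8:94810203-94810502. Capitals mark matches to the motifs named in the next paragraph.
Ccl22: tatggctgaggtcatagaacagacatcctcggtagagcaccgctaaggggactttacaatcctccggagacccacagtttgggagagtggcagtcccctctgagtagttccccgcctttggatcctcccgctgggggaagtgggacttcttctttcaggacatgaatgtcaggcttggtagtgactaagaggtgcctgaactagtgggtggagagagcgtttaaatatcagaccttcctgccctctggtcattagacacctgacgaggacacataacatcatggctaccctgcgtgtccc
Cx3cl1: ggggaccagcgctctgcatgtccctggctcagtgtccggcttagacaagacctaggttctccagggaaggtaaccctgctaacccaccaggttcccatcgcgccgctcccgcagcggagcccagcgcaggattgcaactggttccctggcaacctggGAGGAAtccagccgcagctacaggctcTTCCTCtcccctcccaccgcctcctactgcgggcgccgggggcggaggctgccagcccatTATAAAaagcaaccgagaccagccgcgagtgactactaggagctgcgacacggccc
Ccl17: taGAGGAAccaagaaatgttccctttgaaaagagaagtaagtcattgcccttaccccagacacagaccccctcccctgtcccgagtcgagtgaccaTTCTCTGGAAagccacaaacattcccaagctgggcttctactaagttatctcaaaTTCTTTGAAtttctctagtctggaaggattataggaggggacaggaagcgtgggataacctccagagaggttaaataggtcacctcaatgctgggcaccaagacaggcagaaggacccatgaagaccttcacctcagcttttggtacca

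The windows were searched on both strands for 8 motifs, and no 2 matches overlapped. Ccl17 held a palindrome of the STAT6 type, TTC and GAA with any 4 bases between, at -154 to -145 from the start, which 6.95% of all 32851 promoter windows in the table also held. It held a palindrome of the STAT5 type, TTCNNNGAA, at -99 to -91, found in 8.30% of all windows, and the PU.1-type letters GAGGAA, found in 28.3%. Cx3cl1 held GAGGAA at 2 places and the TATA box letters TATAAA (13.6% of all windows). The NF-kB consensus (8.46%), AP-1 (TGANTCA, 7.81%), the interferon response element (GAAA, any 2 bases, GAAA, 3.44%) and the ETS-IRF composite (GGAA, any 2 bases, GAAA, 2.72%) had no match in these 3 windows. The Ccl22 window matched none of the 8, which says only that those letters are not in these 300 bases. GC content was 53.3% for Ccl22, 64.7% for Cx3cl1 and 48.0% for Ccl17.

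Ccl22 was bright on every array labelled spleen and dim on every array labelled lymph node. Its deposited intensity was 662.3, 612.8 and 664.8 units on the arrays labelled spleen, against 16.5, 23.6 and 22.5 units on those labelled lymph node. The groups did not overlap, and the lowest array labelled spleen stood 26.0-fold above the highest labelled lymph node. On the log2 scale Ccl22 averaged 9.34 ± 0.07 on the arrays labelled spleen and 4.37 ± 0.28 on those labelled lymph node (SD, n = 3 each), a difference of 4.97 ± 0.18 (SE). The ratio of geometric means was 31.3, and Ccl22 ranked the second of 12393 genes by its difference towards the arrays labelled spleen. In bulk RNA, fewer cells of a type and less RNA per cell cannot be told apart.

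The fold rests on a dim side. On the arrays labelled spleen 93.4%, 92.6% and 93.4% of all probe sets had a lower intensity than Ccl22, against 34.6%, 40.7% and 39.1% on those labelled lymph node. No detection calls were used, so whether the 3 arrays labelled lymph node measured Ccl22 above background is unknown. Adding 16 units to every value before the log2 step gave a difference of 4.17, an 18.0-fold ratio. The arrays labelled spleen differed from each other by at most 1.08-fold, and those labelled lymph node by at most 1.43-fold.

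Ccl17 differed in the same direction by a much smaller amount. Its intensity was 65.4, 54.4 and 48.0 units on the arrays labelled spleen, against 28.2, 31.3 and 27.6 units on those labelled lymph node. The groups did not overlap, but the lowest array labelled spleen was only 1.53-fold above the highest labelled lymph node. The log2 means were 5.79 ± 0.22 on the arrays labelled spleen and 4.86 ± 0.10 on those labelled lymph node (SD, n = 3 each), a difference of 0.94 ± 0.17 (SE) or 1.91-fold. It ranked 525 of 12393 genes by that difference. Of all genes 24.5% had groups with no overlap, 11.8% were higher on the arrays labelled spleen with no overlap, and 3.51% were so by at least the difference of Ccl17. Because the contrast chose both genes, nothing is read from these shares.

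**Figure D1:**
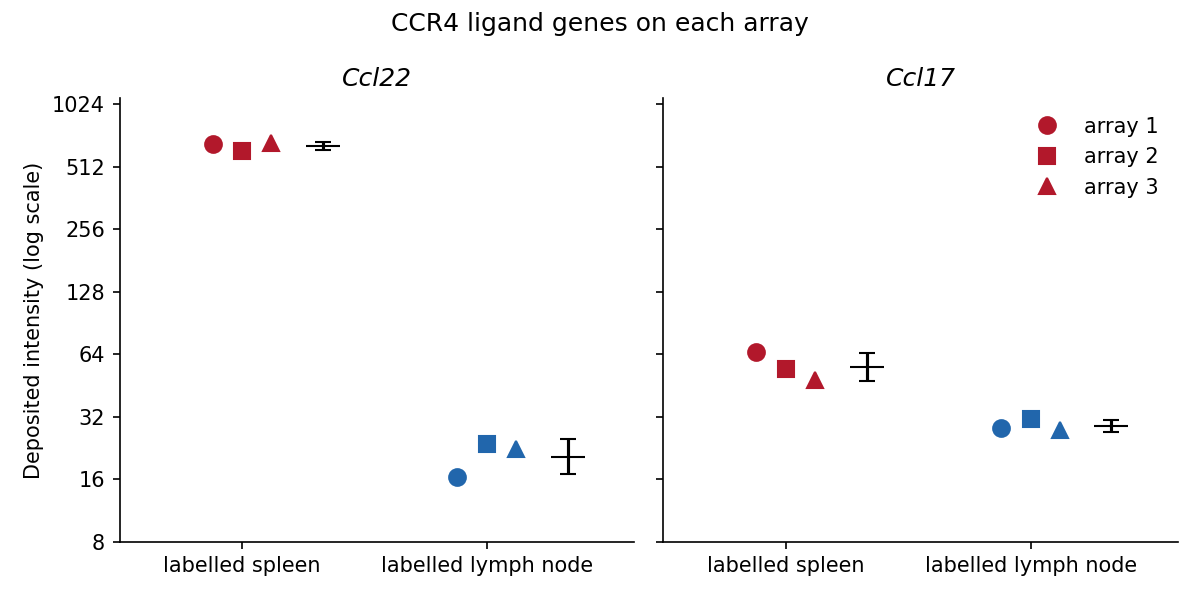
Deposited intensity of Ccl22 (left) and Ccl17 (right) on a log axis, with 1 symbol per array, red for arrays labelled spleen and blue for arrays labelled lymph node. The black marks are geometric means with 1 SD of the log2 values (n = 3); Ccl22 sits at 613 to 665 units on arrays labelled spleen against 16.5 to 23.6 on those labelled lymph node, and Ccl17 at 48.0 to 65.4 on arrays labelled spleen against 27.6 to 31.3 on those labelled lymph node.

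Ccl17 was also low on its array's scale in both groups. Between 53.1% and 59.3% of probe sets were dimmer than it on the arrays labelled spleen, against 42.6% to 45.4% on those labelled lymph node. With 16 units added the difference was 0.67, a 1.59-fold ratio. The arrays did not order the 2 genes alike: within the arrays labelled spleen Ccl17 was highest on array 1 and lowest on array 3, whereas Ccl22 was highest on array 3 and lowest on array 2. Within the arrays labelled lymph node both genes were highest on array 2, but Ccl22 was lowest on array 1 and Ccl17 on array 3.

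The log2 difference of Ccl22 exceeded that of Ccl17 by 4.03 ± 0.20 (SE, n = 3 arrays per group). No level of one gene is compared with that of the other, since different probe sets have different affinities. Taken within each array, the log2 value of Ccl22 minus that of Ccl17 was 3.34, 3.49 and 3.79 on the arrays labelled spleen, against -0.77, -0.41 and -0.29 on those labelled lymph node. Only the shift between the groups is meaningful here, and all 3 arrays labelled spleen lay above all 3 labelled lymph node.

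None of the measured neighbours passed the test. The interval around the pair held 7 other measured genes, and 0 of them passed an adjusted p of 0.05 in limma, against 3.40% of all genes (2.03% higher and 1.37% lower on the arrays labelled spleen). At an unadjusted p of 0.05, 1 of the 7 passed, beside 19.0% of all genes, and with trended and robust eBayes in limma 0 passed, beside 4.65%. Their median log2 difference was -0.06, beside -0.0053 over all genes. Cx3cl1, which lies between the 2 ligand genes, had log2 values of 3.83, 3.96 and 3.94 on the arrays labelled spleen, against 3.87, 3.88 and 4.16 on those labelled lymph node. The difference was -0.06 ± 0.16 (SE, adjusted p = 0.897), and the groups overlapped. Cx3cl1 was low on the scale throughout, and 2 of its 3 probe sets had that sign.

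On the far side of Ccl22 lie Pllp, the gene of the membrane protein plasmolipin, with a difference of 0.36 ± 0.33 (SE, adjusted p = 0.632), and Arl2bp, at 0.32 ± 0.23 (adjusted p = 0.507). The 2 probe sets of Arl2bp had opposite signs (0.32 and -0.26). Beyond Ccl17 lie Ciapin1, an iron-sulphur protein gene (-0.21, adjusted p = 0.661), Coq9 of ubiquinone synthesis (-0.14, adjusted p = 0.854) and Polr2c, a subunit of RNA polymerase II (0.15, adjusted p = 0.745). Dok4, an adaptor gene, had the largest difference of the 7, -0.64 ± 0.22 (SE, adjusted p = 0.172). The groups overlapped or met for all 7 genes.

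**Figure D2:**
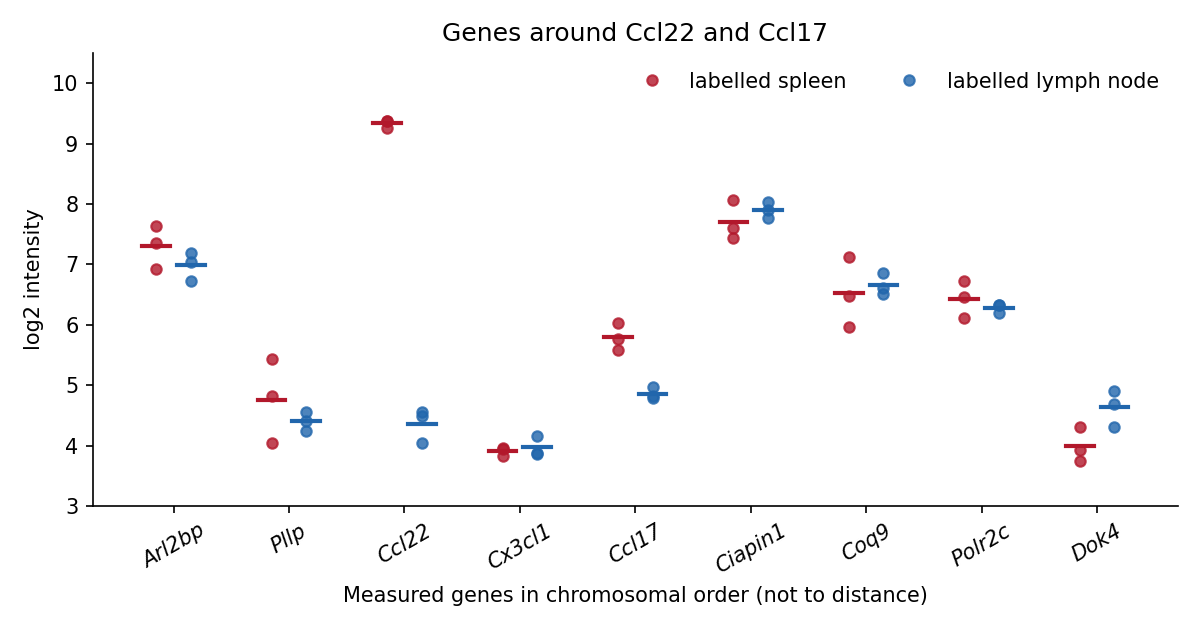
Log2 intensity of the 9 measured genes of the interval in chromosomal order, with 1 point per array and a bar at each group's mean, red for arrays labelled spleen and blue for arrays labelled lymph node. Of these 9 only Ccl22 and Ccl17 have groups that neither overlap nor meet; heights of different genes are not comparable.

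The receptor side was measured next. Ccr4, the shared receptor of both ligands, had log2 values of 3.12, 2.58 and 2.58 on the arrays labelled spleen, against 2.51, 2.26 and 2.14 on those labelled lymph node. These values lie near the bottom of the scale, whose lowest intensities were 2.1 to 2.4 units, and the difference of 0.46 ± 0.21 (SE) did not pass (adjusted p = 0.282). Ackr2, the decoy receptor that removes inflammatory CC chemokines including both ligands, differed by -0.01 ± 0.23 (adjusted p = 0.984), and its 2 probe sets had opposite signs. Dpp4, the cell-surface peptidase CD26 that trims the amino end of CCL22, had a difference of -0.34 ± 0.17 (adjusted p = 0.347), at log2 means of 10.03 ± 0.18 on the arrays labelled spleen and 10.37 ± 0.17 on those labelled lymph node (SD, n = 3 each). Ackr1, an atypical receptor that binds many chemokines, CCL17 among them, fell by 1.10 on the log2 scale (SE 0.22, adjusted p = 0.0404). It lay at 4.04, 4.62 and 4.72 on the arrays labelled spleen, against 5.71, 5.36 and 5.63 on those labelled lymph node.

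Ackr1 was the 1 gene past the threshold among 11 receptors, decoys and signalling partners of CCR4, and 0 of them were higher. That is 9.09% of the list beside 3.40% of all genes, and the median difference was -0.01. The Ackr1 call ended in 7 of the 12 alternative settings it entered, with adjusted p values from 0.0361 to 0.178. Among the signalling partners, named after their values were seen, were the G protein subunit gene Gnai2, at -0.52 ± 0.18 (SE, adjusted p = 0.172), and the arrestin gene Arrb1, at 0.71 ± 0.22 (adjusted p = 0.132).

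The receptors and transducers of the signals known to induce both ligands came next. Of 17 measured genes of interleukin-4, interleukin-13, GM-CSF and TSLP receptor signalling, 1 was higher on the arrays labelled spleen and 0 were lower. This was 5.88% beside 3.40% of all genes, with a median of 0.10. The 1 gene was Il7r, a receptor chain for interleukin-7 and TSLP that T cells also express, at 10.81, 9.66 and 10.90 on the arrays labelled spleen, against 7.25, 6.88 and 8.47 on those labelled lymph node (difference 2.93 ± 0.47 SE, adjusted p = 0.0232). The Il7r call ended when lymph node array 1 or 2, or else spleen array 1, was dropped (0 of 17 each time). In those fits 56, 47 and 130 of all genes passed.

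Il4ra, the interleukin-4 receptor chain, differed by 0.0073 ± 0.32 (SE, adjusted p = 0.994), with overlapping groups and 2 of 3 probe sets of that sign. Stat6, the transcription factor it activates, was 8.81, 8.99 and 9.03 on the arrays labelled spleen, against 9.30, 9.33 and 9.36 on those labelled lymph node. Its groups did not overlap, but the difference of -0.39 ± 0.15 (SE) did not pass (adjusted p = 0.212). Irf4, a transcription factor of CD11b-lineage DCs, had a difference of -0.79 ± 0.24 (adjusted p = 0.115), opposite in sign to both ligands. Csf2rb, the common beta chain of the GM-CSF receptor, had one of 0.74 ± 0.19 (adjusted p = 0.0847).

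Of 16 genes known to respond to interleukin-4 in macrophages and DCs, 3 were higher on the arrays labelled spleen and 1 was lower. That is 25% of the list beside 3.40% of all genes, at a median difference of 0.22. The higher ones were Cdh1, which encodes the adhesion protein E-cadherin (3.75 ± 0.39 SE, adjusted p = 0.00589), the lectin gene Clec10a (2.66 ± 0.41, adjusted p = 0.0196) and Socs2, a feedback inhibitor of cytokine signalling (2.21 ± 0.40, adjusted p = 0.0331). The lower one was the transglutaminase gene Tgm2 (-2.38 ± 0.48, adjusted p = 0.0430). Socs2 is also counted among the mature and migratory DC genes below, and Cdh1 among the Langerhans cell and skin markers. The Socs2 and Tgm2 calls each ended in 6 of the alternative settings. Well-known markers of the response, named after their values were seen, did not pass: Arg1 differed by 0.32 ± 0.20 (SE, adjusted p = 0.446), Mrc1 by 0.37 ± 0.72 (adjusted p = 0.848) and Retnla by 0.50 ± 0.37 (adjusted p = 0.541). The count of 4 was 1 without lymph node array 1 or 2, where 56 and 47 of all genes passed. It was 2 without spleen array 2 or 3 or with 16 units added, where 369, 475 and 369 of all genes passed.

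NF-kB factors act in DC maturation. Of 19 measured subunits, regulators and targets 0 passed in limma, beside 3.40% of all genes. At an unadjusted p of 0.05, 7 of the 19 passed, beside 19.0% of all genes, and 1 passed with trended and robust eBayes, beside 4.65% of all genes. Without spleen array 3 the count was 2, where 475 of all genes passed. The median difference was -0.06. Relb, a subunit of mature DCs, was 6.53, 6.83 and 7.07 on the arrays labelled spleen, against 7.25, 7.05 and 7.33 on those labelled lymph node, with overlapping groups (-0.40 ± 0.19 SE, adjusted p = 0.308).

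Ccl22, which was selected on its difference, had the largest one of any measured chemokine ligand gene, a description only. Among the 31 others, 1 passed the threshold and 0 passed in the lower direction, which is 3.23% beside 3.40% of all genes, with a median of 0.06. That gene was Cxcl16, a membrane-bound chemokine of antigen-presenting cells, at 10.19, 10.62 and 10.06 on the arrays labelled spleen, against 8.58, 8.43 and 9.28 on those labelled lymph node (1.53 ± 0.26 SE, adjusted p = 0.0304). Its call ended in 4 of 13 alternatives, each time with 1 array left out (lymph node 1 or 2, spleen 1 or 2), and adjusted p ran from 0.0132 to 0.134. The count of 1 was 3 without lymph node array 3 or spleen array 3 and with a replicate block. In those fits 307, 475 and 519 of all genes passed.

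The genes nearest to Ccl22 by size of difference, named after their values were seen, varied far more between arrays. Cxcl1, a neutrophil attractant, was 8.24, 7.40 and 3.77 on the arrays labelled spleen, against 3.12, 2.58 and 2.98 on those labelled lymph node. Its mean difference of 3.57 ± 1.00 (SE) did not pass (adjusted p = 0.103), and spleen array 3 lay near the other group. Xcl1, a chemokine of NK and T cells, had a difference of 3.17 ± 0.81 (adjusted p = 0.0801). At the other end stood Ccl3 and Ccl4, inflammatory chemokines of activated myeloid cells, with differences of -1.72 ± 0.64 (adjusted p = 0.198) and -1.62 ± 0.40 (adjusted p = 0.0734).

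**Figure D3:**
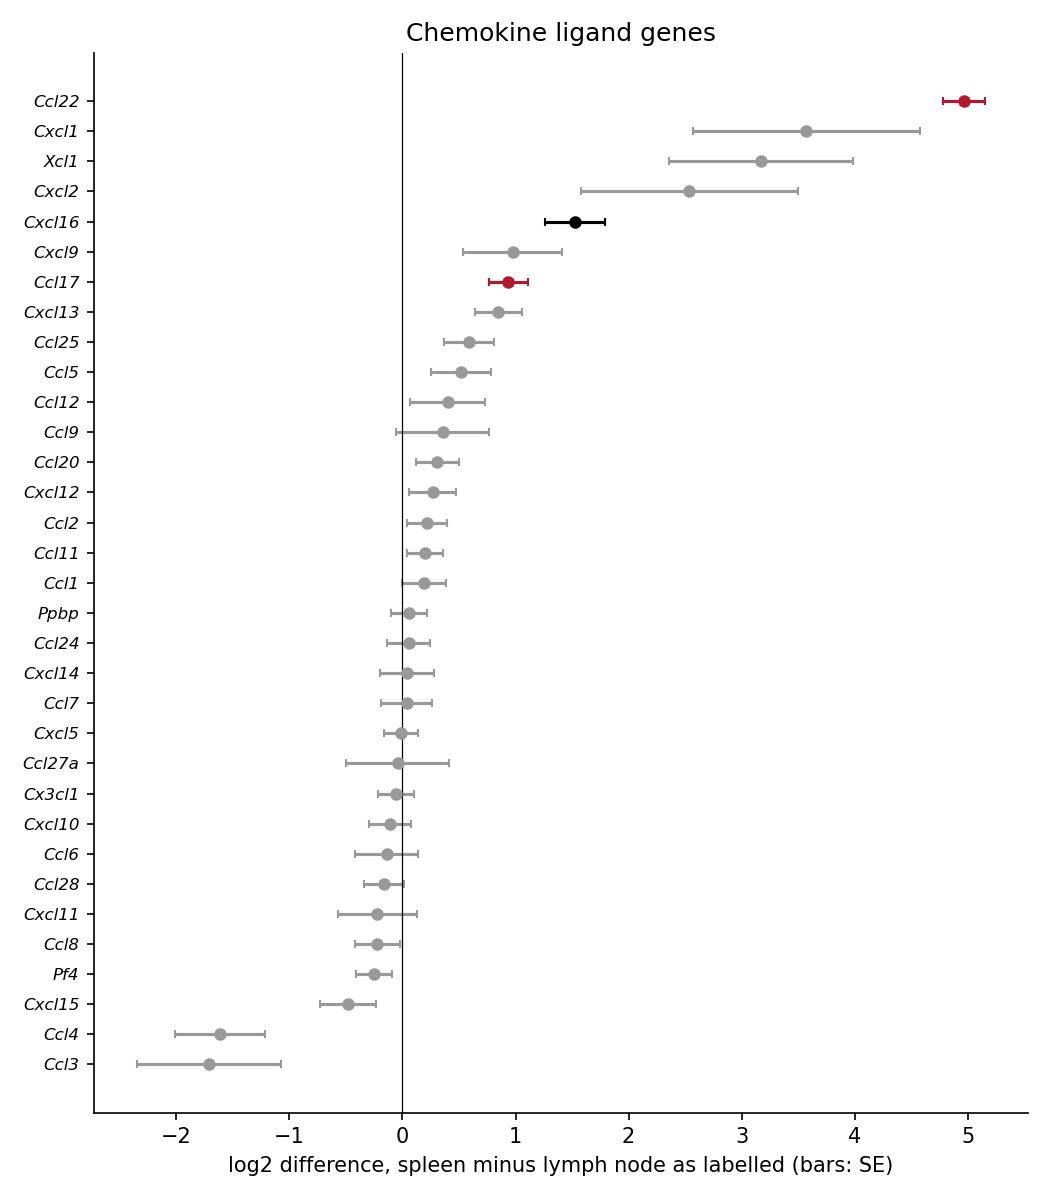
Log2 difference, spleen minus lymph node as labelled, for the 33 measured chemokine ligand genes, with bars of 1 SE from limma. Ccl22 and Ccl17 are red and described without a test, Cxcl16 is black because it passed an adjusted p of 0.05, and the grey genes did not pass.

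Of 20 measured chemokine receptor genes 2 were higher on the arrays labelled spleen and 1 was lower, 15% beside 3.40% of all genes, with a median of 0.20. The higher ones were Ccr7 (1.47 ± 0.31 SE, adjusted p = 0.0496) and Ccr9, a receptor of gut homing and of plasmacytoid DCs (2.79 ± 0.54, adjusted p = 0.0385). The lower one was Ackr1. The Ccr7 call ended in 9 of 13 alternatives, among them median centring, a second quantile normalization and 5 of the 6 fits with 1 array left out, and adjusted p ran from 0.0121 to 0.190. Median centring and the quantile normalization each gave 2 receptors. Without lymph node array 1 or 2, or without spleen array 1, the count was 0, where 56, 47 and 130 of all genes passed. It was 1 with 16 units added or when spleen array 2 was dropped, where 369 of all genes passed each time.

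Mature and migratory DCs are textbook sources of Ccl22. Of 29 genes of such cells that were measured, 12 were higher on the arrays labelled spleen and 0 were lower, 41.4% beside 2.03% of all genes in that direction, with a median difference of 0.98. This list and its direction were known from earlier results of the same arrays, so the count is not independent evidence. The 6 with the smallest adjusted p were Serpinb9 (2.89 ± 0.23 SE, adjusted p = 0.00350) and Serpinb6b (2.68 ± 0.25, adjusted p = 0.00529), both intracellular protease inhibitors, Cd200, an inhibitory surface glycoprotein (2.52 ± 0.26, adjusted p = 0.00582), Fscn1 (1.82 ± 0.22, adjusted p = 0.00946), the actin regulator Marcksl1 (1.47 ± 0.19, adjusted p = 0.0119) and the interleukin-15 receptor chain Il15ra (1.99 ± 0.27, adjusted p = 0.0127). For Fscn1, 3 of 4 probe sets had that sign. The lowest member, named after its values were seen, was Adam23, at -1.13 ± 0.25 (adjusted p = 0.0524), with no overlap. In the lower direction 1 member passed with median centring, the mean of a gene's probe sets, the median-level filter or trended robust eBayes. The same held without spleen array 2.

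Apart from Cd200, given above, the listed maturation genes that encode costimulatory and checkpoint molecules did not pass. Cd83 differed by -0.46 ± 0.46 (SE, adjusted p = 0.665), Cd86 by 0.09 ± 0.26 (adjusted p = 0.908), Cd80 by -0.73 ± 0.30 (adjusted p = 0.247) and Cd274, the gene of PD-L1, by -0.47 ± 0.34 (adjusted p = 0.519), all named after their values were seen. Cd40, likewise, had a difference of 0.76 ± 0.18 (adjusted p = 0.0660). The count of 12 was 3 without lymph node array 1 or 2 and 5 without spleen array 1. It was 7 without spleen array 2 (6 higher and 1 lower) and 6 with 16 units added. Over all genes the count of 421 also fell in these fits. It was 56 without lymph node array 1, 47 without lymph node array 2 and 130 without spleen array 1. It was 369 without spleen array 2 and 369 with 16 units added.

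**Figure D4:**
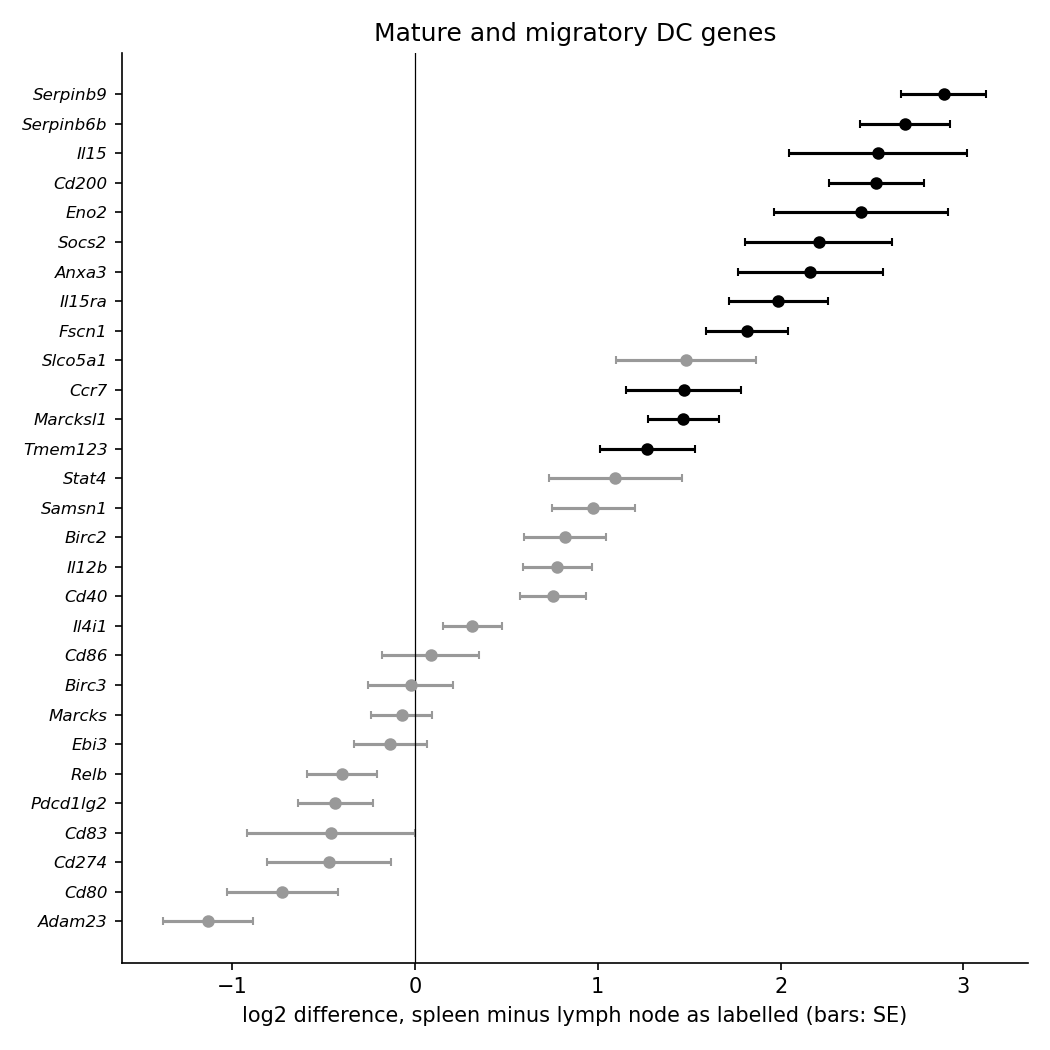
Log2 difference, spleen minus lymph node as labelled, for the 29 measured mature and migratory DC genes, with bars of 1 SE from limma, black where the adjusted p was under 0.05. The 12 black genes lie between Tmem123 at 1.27 and Serpinb9 at 2.89; Cd80, Cd83, Cd86, Cd274 and Relb are grey.

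The genes whose pattern over the 6 arrays was closest to each ligand were found among 1199 genes for Ccl22 and 1200 for Ccl17 with a mean above the median of all genes and an SD over the arrays of at least 0.5. Likeness is a description here, since the genes found closest to a ligand share its direction of difference between the groups. By distance between gene-centred log2 profiles (root mean square over 6 arrays), the gene closest to Ccl22 was Aldh1a2, which makes retinoic acid, at 0.18. Aldh1a2 was 8.73, 8.87 and 8.97 on the arrays labelled spleen, against 3.58, 4.49 and 4.29 on those labelled lymph node. As with Ccl22, the arrays labelled spleen lay close together and lymph node array 1 was lowest. Next came Laptm4b, a lysosomal membrane protein gene (0.61), Glipr2 (0.72), the exchange factor gene Net1 (0.95) and Insl6 (1.04). By Pearson correlation over the 6 arrays, the 8 leading genes were Epsti1, Aldh1a2, Txndc17, Cpne3, Tmem39a, Laptm4b, Serpinb6b and Basp1, with r from 0.999 to 0.987.

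The genes closest to Ccl17 and those closest to Ccl22 shared 0 members by either measure. For distance this was fixed in advance, because the ligands' own log2 differences, 4.97 and 0.94, lie too far apart. Nothing is read from it. By distance the genes closest to Ccl17 were Dnmt1, the maintenance DNA methyltransferase (0.064), Gsr, glutathione reductase (0.092), the tubulin gene Tuba1a (0.092), the receptor gene Lpar3 (0.11) and the GTPase gene Rap2b (0.11). Dnmt1 was 9.77, 9.43 and 9.15 on the arrays labelled spleen, against 8.54, 8.66 and 8.56 on those labelled lymph node, highest on spleen array 1 and lowest of its group on spleen array 3, as Ccl17 was. Gsr had opposite signs in its 2 probe sets. By correlation the leading genes were Ube2l6, Dnmt1, Smpdl3a, Tnfaip2, Sema6d, Idi1, Vwa5a and AW112010, with r from 0.996 to 0.982. Ccl22 and Ccl17 themselves had r = 0.96, and 123 of the 12392 other genes had a higher r with Ccl22. That count is over all genes. Ccl17, whose mean lay below the median of all genes, was not among those searched for likeness to Ccl22.

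**Figure D5:**
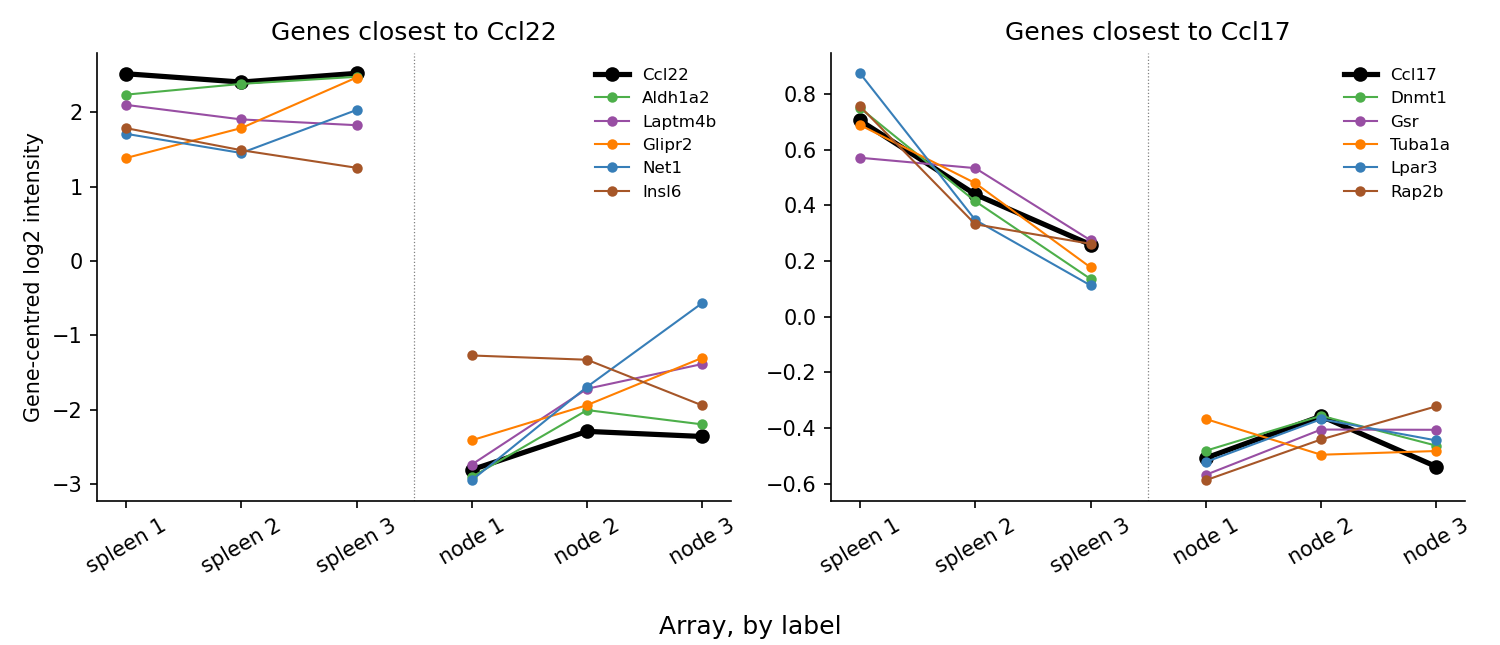
Gene-centred log2 intensity on each array for Ccl22 (left, black) and Ccl17 (right, black) and the 5 genes with the smallest distance to each, with arrays labelled spleen left of the dotted line; lines only join the points of a group. Aldh1a2 runs closest to Ccl22 and Dnmt1 closest to Ccl17; the vertical scales of the panels differ.

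Technical controls and some markers of other cells differed in the direction of both ligands. The 15 bacterial poly-A control probe sets averaged 7.65, 7.18 and 7.71 on the log2 scale on the arrays labelled spleen, against 6.41, 6.69 and 6.80 on those labelled lymph node, with no overlap. Plasmacytoid DC markers were higher for 3 of 10 measured members (Blnk, Klk1 and Ccr9), beside 2.03% of all genes, and lower for 0, beside 1.37%. They summed to 1612 to 5392 units on the arrays labelled spleen, against 600 to 1287 on those labelled lymph node. T cell markers were higher for 2 of 13 (Il7r and Cd28), beside 2.03% of all genes, and lower for 0, with sums of 1926 to 3890 units on the arrays labelled spleen against 1472 to 1900 on those labelled lymph node. Without Il7r, a choice made after seeing the data, the sums overlapped, at 1115 to 1978 units on the arrays labelled spleen against 1354 to 1546 on those labelled lymph node. The brightest member left was Cd4, at 554, 545 and 1268 units on the arrays labelled spleen against 1161, 1070 and 933 on those labelled lymph node. The groups overlapped for the T cell receptor complex genes Cd3d (0.74), Cd3e (0.93) and Cd3g (1.47), and for Cd2 (1.87) and Ctla4 (1.30). Cd4 (-0.53), Icos (-1.09) and Cd5 (-0.41) had differences of the opposite sign. None of these genes passed, and all were named after their values were seen. Foxp3, the factor of regulatory T cells, named after its values were seen, differed by 0.03 (adjusted p = 0.947). The part of these controls and cells in the difference of Ccl22 and Ccl17 was not tested.

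Langerhans cell and skin markers were higher for 2 of 7 (Cdh1 and Cldn1), beside 2.03% of all genes, and lower for 0, with sums of 464 to 576 units on the arrays labelled spleen against 310 to 431 on those labelled lymph node. Epcam (-0.41) and Krt5 (-0.26), named after their values were seen, had differences of the opposite sign that did not pass. Neutrophil markers were lower for 1 of 7 (Camp), beside 1.37% of all genes, with sums of 62.7 to 128 units on the arrays labelled spleen against 176 to 715 on those labelled lymph node. The brighter S100a9 (-3.44, adjusted p = 0.0536 in limma) and S100a8 (-2.63, adjusted p = 0.0569) did not pass, though their groups did not overlap. Elane had a difference of the opposite sign (0.16). Sums of B cell, plasma cell, NK cell and macrophage markers overlapped between the groups, with Sdc1 of plasma cells higher and Cr2 of B cells lower. Pecam1 was the 1 lower gene among 6 of lymph node stroma, and 0 erythroid, NK cell or macrophage markers passed in limma. Of the conventional DC markers 3 of 15 were lower on the arrays labelled spleen, Sirpa, Ciita and Itgax, beside 1.37% of all genes, and 0 were higher. Among genes of CD8-lineage DCs in that list, Irf8 (1.67), Cd8a (1.57), Itgae (1.18) and Xcr1 (1.14) had differences of the opposite sign that did not pass. Batf3, of the same lineage, was lower at -1.05, with no overlap, and did not pass either (adjusted p = 0.0920). All were named after their values were seen.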

How the data were processed

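Per the labels' protocols, RNA came from a phenol-based extraction followed by a spin column, with carrier RNA (20 ng) added; preparations needed an integrity number over 8.4, and 2 ng of RNA was amplified. The deposited values are probe set intensity on a linear scale. RMA and limma are named, per the submitters' processing notes, and no versions, scaling or floor are known. Array medians were 39.4 to 41.3, and the number of arrays limits the precision.

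The table held 22690 probe sets, 64 of them controls. The platform annotation gave 1 symbol for 20393, several for 691 and none for 1606. A RefSeq table (GRCm38.p6) matched 20364 by Entrez identifier, with 0 symbols changed, and no build is given for the arrays. The brightest 1-symbol probe set stood for each of 12393 genes.

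Groups came from the sample titles. The log2 values were compared, spleen minus lymph node, by lmFit and eBayes of limma 3.58.1 under R 4.3.3 (two-sided, Benjamini-Hochberg over all genes, threshold 0.05), after the functions were tested on simulated data. In all, 421 genes passed (3.40%), 251 higher and 170 lower on the arrays labelled spleen. Ccl22, Ccl17, the 8 gene lists and the 13 marker lists were chosen with earlier results of these data known. The genes named are, per list, up to 6 past the threshold by adjusted p (3 for marker lists), a set group of receptors, factors and DC genes, the genes of the locus and those closest in pattern. Others are said to be named after their values were seen. Alternatives were median centring, quantile normalization, 16 units added, the mean of a gene's probe sets, a filter at the median level, trended robust eBayes, a replicate block and each array left out.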

Additional observations from a re-analysis of the deposited data

How the results depend on the processing

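The Ccl22 difference was 4.81 to 5.07 with 1 array left out, that of Ccl17 0.82 to 1.04 and their gap 3.89 to 4.13. Adding 16 units gave 4.17, 0.67 and 3.50. The other alternatives moved these 3 values by less than 1 SD between arrays. The count of 421 genes was 47 to 475 with 1 array left out: 56 without lymph node array 1, 47 without lymph node array 2 and 130 without spleen array 1. Median centring gave 252 higher and 155 lower, trended robust eBayes 576 genes in all.

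Counts of list members past the threshold with 1 array left out ranged from 0 to 1 for CCR4 partners and for cytokine receptor signalling, 1 to 4 for interleukin-4 response genes, 0 to 2 for NF-kB, 3 to 12 for mature DC genes, and 0 to 3 for chemokine ligands and for receptors. Locus genes stayed at 0 in these fits. The median-level filter gave 0 for CCR4 partners, 2 for cytokine signalling and 1 for NF-kB. Adding 16 units gave 0 for CCR4 partners, 2 for interleukin-4 response, 6 for mature DC genes and 1 for receptors. Trended robust eBayes gave 3 for cytokine signalling and 1 for NF-kB. The causes were not tested.

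The main fit did not pair the arrays by replicate number. Deviations from group means correlated at 0.022, 0.24 and 0.16 for numbers 1 to 3. Arrays of unlike number were not compared, so whether the numbers pair the arrays is not known. With the number as a replicate block 519 genes passed, 0 CCR4 partners, 2 cytokine signalling genes and 3 chemokine ligands, and the Ccl22 and Ccl17 differences were unchanged by construction.

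Values near 0 changed sign: the Ackr2 log2 difference with 16 units added (0.000608), with the mean of its probe sets (0.0619) and with 1 array left out (-0.21 to 0.17), in the same order the Il4ra log2 difference (-0.00324, -0.0755 and -0.33 to 0.29), and, with 1 array left out only, Coq9 (-0.44 to 0.14) and Cx3cl1 (-0.11 to 0.039). The low signal of Ccl22 on arrays labelled lymph node and of Ccl17 on all arrays limits both folds.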
